A study of Mus musculus with 8 samples.

Results

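The Slc25a genes encode the mitochondrial carriers, the protein family that moves metabolites, nucleotides, cofactors and ions across the inner membrane of the mitochondrion. Members were the protein-coding genes whose symbol is Slc25a followed by a number in the GENCODE M21 annotation of the mouse genome build GRCm38, and 47 of the 41388 genes in the deposited tables met that rule. RNA was sequenced from macrophages sorted out of the epididymal fat pad (eWAT, a visceral white adipose tissue) of 4 male MitoFat mice fed normal chow. Each mouse gave 2 sorted populations of live CD45+ F4/80+ CD64+ cells, one without the mitochondrial reporter mtD2 (mtD2-) and one with it (mtD2+), which makes 8 libraries in 4 pairs. MitoFat mice mark the mitochondria of adipocytes, and the design takes the signal in a macrophage as a sign of mitochondria received from fat cells. As background from the published description of this model, mtD2 is the fluorescent protein Dendra2 sent to the mitochondrial matrix, and it is switched on by a Cre recombinase under the adiponectin promoter. Both populations therefore share genotype, diet and sex, and differ by the signal on which they were sorted. The sources used here do not give the ages of the mice or how many cells were sorted.

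Carriers of this family are built from a repeated pair of membrane helices and usually work as exchangers: one molecule leaves the matrix as another enters. ADP/ATP carriers hand ADP to ATP synthase and export the ATP made. The phosphate carrier feeds the same enzyme, dicarboxylate and aspartate/glutamate carriers link the cytosol to the tricarboxylic acid cycle, and mitoferrins bring in iron for heme and iron-sulfur clusters. A few members sit elsewhere, on the outer membrane or in peroxisomes. In macrophages the citrate, malate and aspartate/glutamate routes are known for their part in inflammatory metabolism.

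The family as a whole took a similar share of RNA in both populations, and 3 members differed. Slc25a46, an outer membrane protein that acts in mitochondrial fission and cristae upkeep, was 2.0-fold higher in mtD2+ (log2 fold change 1.00, SE 0.14, edgeR adjusted p = 0.00713). Slc25a18, a glutamate carrier, was 3.40-fold higher from a low level (log2 1.76, SE 0.38, edgeR adjusted p = 0.031). Slc25a45, an abundant member without a settled substrate, was 1.55-fold lower (log2 -0.63, SE 0.13, edgeR adjusted p = 0.0242). The calls of Slc25a18 and Slc25a45 did not hold without any 1 mouse, while that of Slc25a46 did. The ADP/ATP carriers, the phosphate carrier, the mitoferrins and the citrate, malate and aspartate/glutamate carriers did not pass the test.

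Levels are given as counts-per-million values (CPM) scaled by each library's TMM factor, and comparisons between genes as that CPM per kilobase of exon (RPKM, recomputed and not the deposited one). Fold changes are mtD2+ over mtD2- from 1 edgeR fit across 13933 genes with the mouse as a block, and calls were made where the p adjusted by Benjamini-Hochberg was under 0.05. Of the 47 members, 42 had enough counts to be tested. Of these, 2 rose and 1 fell, 7.14% in all, against 5.5% of all tested genes (3.72% higher and 1.78% lower), so that the count lies near the background. An unadjusted p under 0.05 was reached by 11 of 42 members, 6 higher and 5 lower, or 26.2% against 22.8% of all genes. DESeq2 also called Slc25a33, Slc25a25 and Slc25a11, and limma voom called no further member. The median log2 fold change was 0.04 over the members and 0.00 over all tested genes, and the median size of a change without its sign was 0.32 and 0.31. In all 4 mice 9 members were higher and 5 lower in mtD2+, or 33.3% moving 1 way against 32.3% of all tested genes. Scaled by library totals these were 7 and 6, because Slc25a5 and Slc25a37 no longer kept to 1 direction and Slc25a32 then did. The 4 libraries of one population lay wholly above those of the other for 4 members (9.52%, against 12.6% of all tested genes): Slc25a46 was the one higher in mtD2+, and Slc25a45, Slc25a11 and Slc25a39 were lower.

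The libraries held 18462287 to 27464399 gene-assigned counts, and 519 genes rose and 248 fell across the series. When libraries were scaled by their totals, 407 rose and 349 fell, a share higher of 53.8% against 67.7%. On the first principal component every mtD2- library lay below every mtD2+ library, at -81.1 to -3.6 against 18.7 to 60.5. The mtD2- library of mouse 4 stood apart at -81.1, with the next at -28.3. All 8 macrophage markers were tested and summed to 13107 to 15295 CPM in mtD2- and 12516 to 14194 in mtD2+, with 1 lower, Adgre1, and 3 past an unadjusted p of 0.05, all lower. Fcgr1, the gene of the sort marker CD64, was among these at 157 to 164 CPM in mtD2- and 102 to 138 in mtD2+ (log2 -0.44, SE 0.11, edgeR adjusted p = 0.0554). Markers of fibroblasts and adipocyte precursors summed to 751 to 1314 CPM in mtD2- and 205 to 271 in mtD2+, with 6 of 8 lower. Those of adipocytes summed to 128 to 210 and 154 to 289 CPM with 0 of 7 called by edgeR and 2 past an unadjusted p of 0.05, both higher. B cell markers summed to 36.0 to 57.4 and 19.6 to 33.6 CPM with 1 of 4 lower, and of the endothelial, mesothelial, T cell, neutrophil, dendritic cell and mast cell markers tested 0 were called by edgeR, with 1 endothelial and 1 dendritic cell marker past an unadjusted p of 0.05. Ly6g and Fcer1a were at 0 in every library. The part of these other cells in the differences of Slc25a45, Slc25a46 and Slc25a18 was not tested, and in bulk RNA fewer cells of a type and less RNA per cell cannot be told apart.

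**Figure D1:**
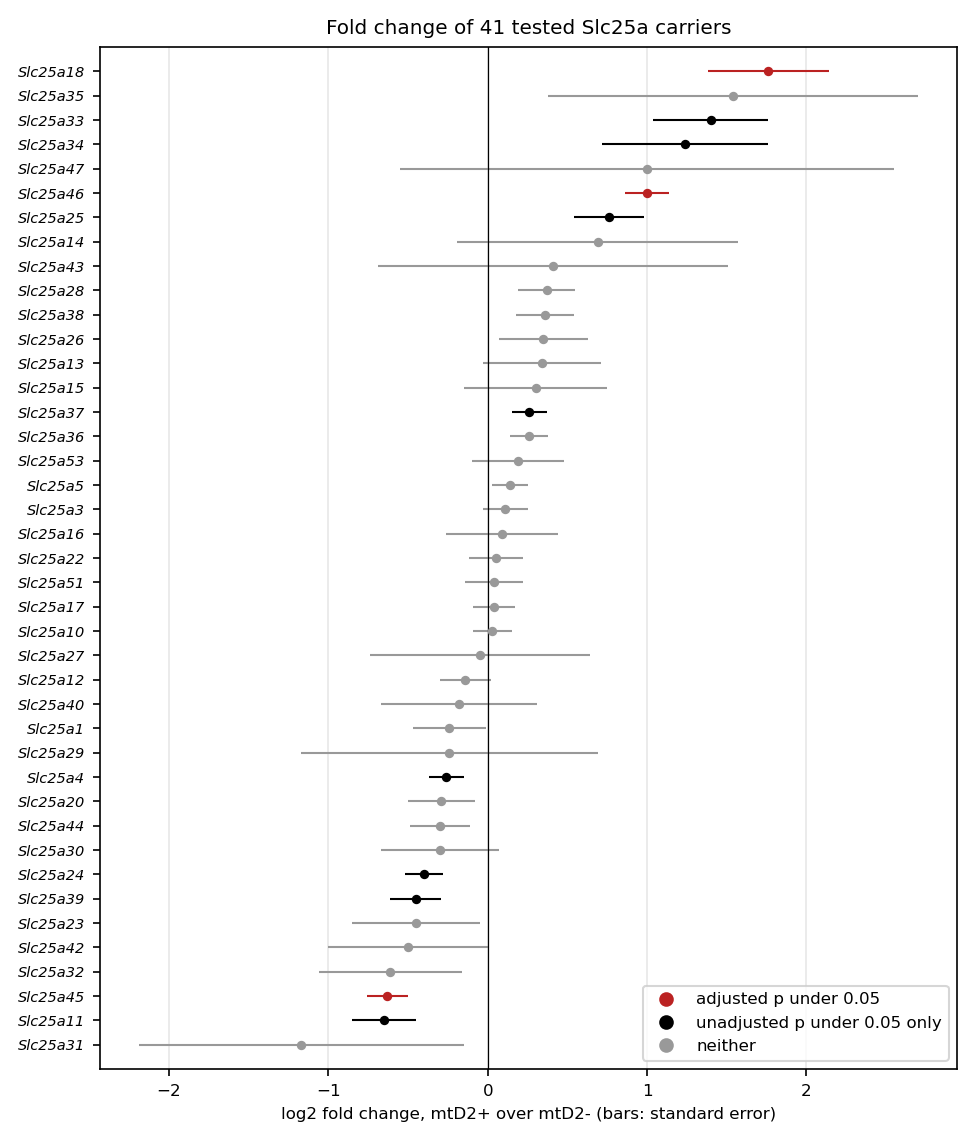
Log2 fold change of 41 of the 42 tested Slc25a carriers (1 is not shown), mtD2+ over mtD2- (horizontal axis, bars show the standard error), ordered by size, with the members past an adjusted p of 0.05 in red and those past an unadjusted p of 0.05 alone in black. Slc25a18 (1.76), Slc25a46 (1.00) and Slc25a45 (-0.63) are the called members, while Slc25a35 (1.54) and Slc25a31 (-1.17), near either end, have wide errors.

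Summed over all members, the level was 1834, 1831, 1768 and 1964 CPM without the reporter (mtD2-, mice 1 to 4 in order) and 1824, 1947, 1790 and 1854 CPM with it. The groups overlapped, and the means of 1849 ± 82.6 and 1854 ± 67.4 CPM (SD, n = 4) differed by less than the spread. The log2 ratios within mice 1 to 4 were -0.01, 0.09, 0.02 and -0.08. Members took 0.177% to 0.196% of all counts in a library.

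The family's RNA was unevenly divided. Per length, the 6 members of highest level made up 62.5% to 71.6% of the family's summed level in a library, and the ADP/ATP carriers Slc25a4 and Slc25a5 alone 33.8% to 46.3%. Slc25a5 stood first at 183 ± 46.3 RPKM in mtD2- and 202 ± 49.9 in mtD2+ (SD, n = 4). Slc25a4 followed at 78.6 ± 5.24 and 66.2 ± 9.03, then Slc25a45 at 64.2 ± 1.61 and 41.9 ± 7.12, and the peroxisomal carrier Slc25a17 at 49.5 ± 5.76 and 50.8 ± 5.73. The phosphate carrier Slc25a3 (38.4 ± 3.2 and 41.9 ± 7.44) and the oxoglutarate carrier Slc25a11 (42.6 ± 6.45 and 27.4 ± 6.98) completed the 6. By their means Slc25a45 and Slc25a17 changed places between the populations, and in mtD2+ their libraries overlapped. Slc25a3 and Slc25a11 did not differ beyond their spread in mtD2-. At the other end, Slc25a21 and Slc25a48 had 0 counts in all 8 libraries, which allows up to 3 counts in each (counting error only). That is 0.109 to 0.162 CPM by library, here of the library's own total without the TMM factor. Slc25a54 had at most 4 counts in a library, Slc25a2, an ornithine carrier, at most 14, and Slc25a41 at most 15, and these 5 were not tested.

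**Figure D2:**
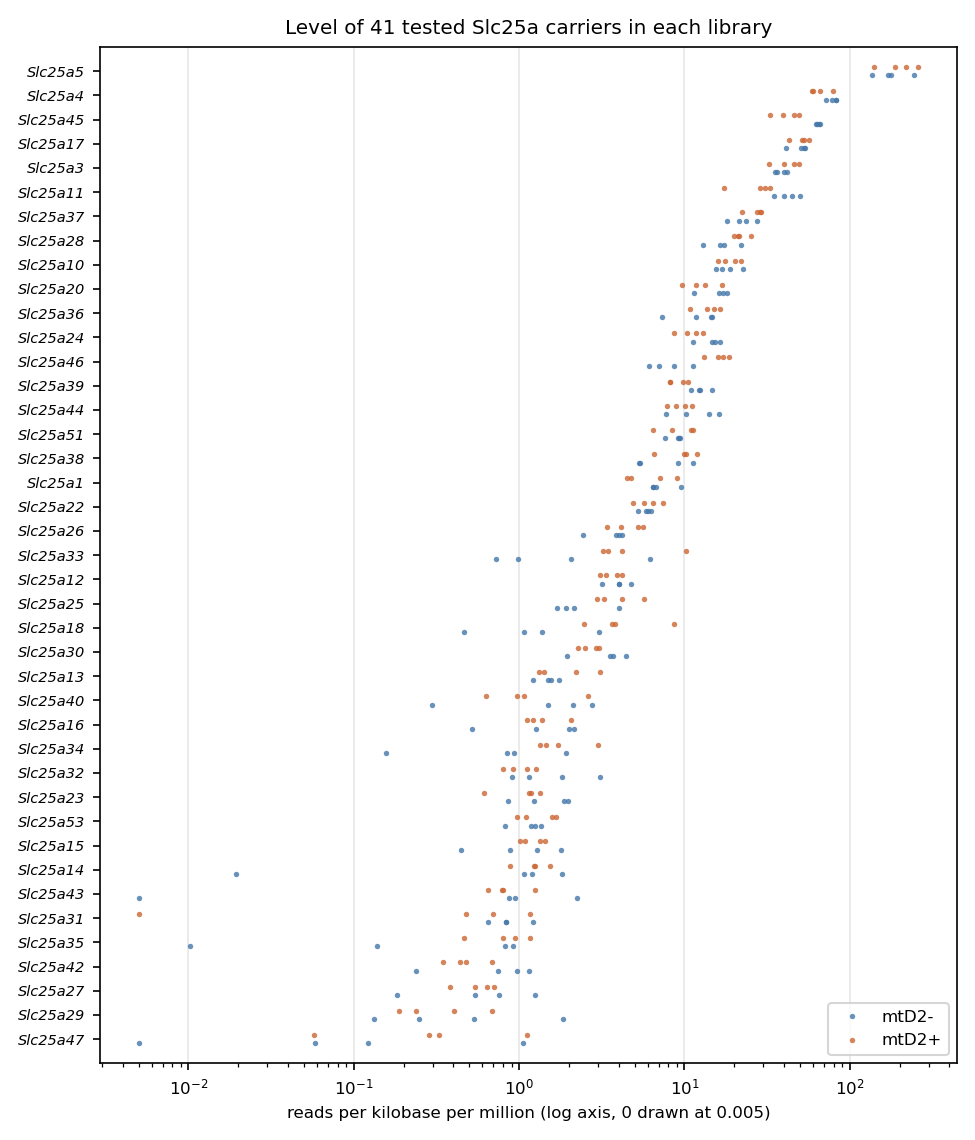
Level of 41 of the 42 tested Slc25a carriers (1 is not shown) in RPKM (log axis, a value of 0 is drawn at 0.005), 1 point for each of the 4 mtD2- libraries (blue) and 4 mtD2+ libraries (orange). Slc25a5 and Slc25a4 lead, Slc25a46 and Slc25a45 show populations that do not overlap, and members near or below 1 scatter widely between libraries.

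Slc25a46 (chromosome 18, 31580168 to 31609902, minus strand) stood at 49.4, 26.8, 30.8 and 37.7 CPM in mtD2- (mice 1 to 4 in order, as for every gene) and at 81.6, 69.5, 57.5 and 75.1 CPM in mtD2+. Every mtD2+ library lay above every mtD2- library, with means of 36.2 ± 9.89 and 70.9 ± 10.2 CPM (SD, n = 4), and the log2 ratios within mice were 0.72, 1.37, 0.90 and 0.99. The call held in all 14 alternative fits, with adjusted p from 5.39e-08 to 0.0382 and log2 fold changes from 0.87 to 1.09. An antisense gene, B930094E09Rik, overlaps 8.6% of its exon bases and had at most 1 count in a library.

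Slc25a45 (chromosome 19, 5877808 to 5885766, plus strand) was measured at 169, 165, 172 and 175 CPM in mtD2- and at 87.3, 122, 130 and 105 CPM in mtD2+. The mtD2- libraries lay close together and above all mtD2+ libraries, which were spread more widely, with log2 ratios of -0.96, -0.43, -0.41 and -0.73 in mice 1 to 4. Summed fibroblast and precursor markers were lower in the same 4 mtD2+ libraries, by log2 -1.68, -1.80, -1.87 and -2.49, and their part in this difference was not tested. The call was lost without the mouse block (log2 -0.62, adjusted p = 0.0551) and on leaving out any 1 mouse (-0.70 to -0.52). Over the 14 alternatives its adjusted p ran from 0.000146 to 0.126.

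Slc25a18 (chromosome 6, 120773768 to 120793982, plus strand), which carries glutamate with a proton, stood at 1.89, 1.47, 0.631 and 4.14 CPM in mtD2- and at 5.20, 4.97, 3.37 and 11.8 CPM in mtD2+. The mtD2- library of mouse 4 lay above the mtD2+ library of mouse 3, so that the groups overlapped, but within each mouse mtD2+ was higher, by log2 1.46, 1.75, 2.42 and 1.51. Its counts were low, 15 to 90 in mtD2- and 76 to 209 in mtD2+. The call was lost without the block (log2 1.64, adjusted p = 0.171) and without any 1 mouse (1.58 to 1.87), and over the 14 alternatives the adjusted p ran from 0.000759 to 0.171. Slc25a22, the other glutamate carrier, had the higher mean level per length, 5.85 ± 0.46 and 6.11 ± 1.06 RPKM (SD, n = 4), against 1.49 ± 1.10 and 4.64 ± 2.74 for Slc25a18.

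**Figure D3:**
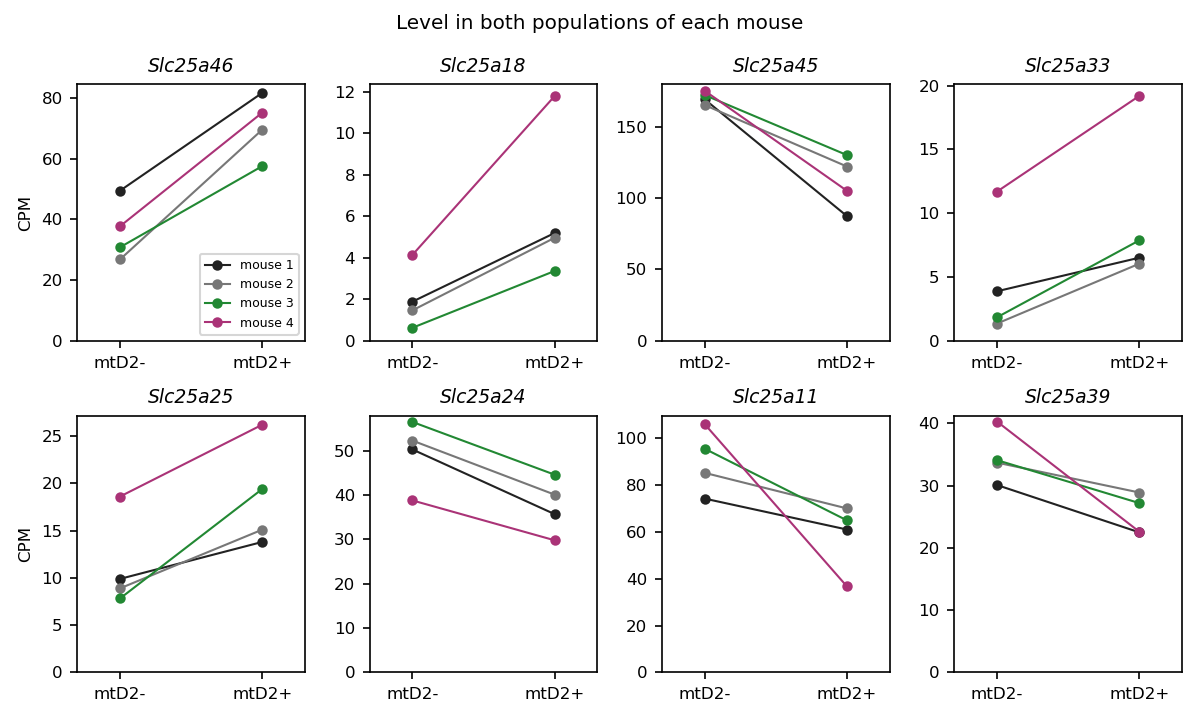
Level in CPM (vertical axes start at 0) of 8 members in the mtD2- and mtD2+ library of each mouse, joined by a line per mouse. All lines run upward for Slc25a46, Slc25a18, Slc25a33 and Slc25a25 and downward for Slc25a45, Slc25a24, Slc25a11 and Slc25a39, and mouse 4 lies above the other mice in both populations for Slc25a18, Slc25a33 and Slc25a25.

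The promoter windows shown are those of the called members Slc25a18 and Slc25a45, which moved in opposite directions, and of Slc25a33. Slc25a33 had the smallest p of the uncalled members, and the window of the called member Slc25a46 is not shown. Each window is from RefSeq on build GRCm38.p6 and runs from 250 bases before to 50 bases after the annotated start, 5′ to 3′ on the strand of the gene. Windows were found for 36 of the 47 members. Capitals mark matches, on either strand, to the E-box (CACGTG), the GC box (GGGCGG), the TATA box (TATAAA), the cyclic AMP response element (TGACGTCA), the AP-1 site (TGANTCA), the core of the NRF1 site (GCGCATGC), the amino acid response element (TGATGNAA) and the core of the interferon-stimulated element (TTTCNNTTT). None of these matches overlaps another in the windows shown.
Slc25a18, chr6:120773518-120773817, plus strand: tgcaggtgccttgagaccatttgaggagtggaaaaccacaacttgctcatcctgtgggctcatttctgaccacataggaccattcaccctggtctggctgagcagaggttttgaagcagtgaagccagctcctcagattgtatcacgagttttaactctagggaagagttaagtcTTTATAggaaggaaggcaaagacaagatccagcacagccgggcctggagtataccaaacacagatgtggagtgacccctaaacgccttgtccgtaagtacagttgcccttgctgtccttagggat
Slc25a45, chr19:5877572-5877871, plus strand: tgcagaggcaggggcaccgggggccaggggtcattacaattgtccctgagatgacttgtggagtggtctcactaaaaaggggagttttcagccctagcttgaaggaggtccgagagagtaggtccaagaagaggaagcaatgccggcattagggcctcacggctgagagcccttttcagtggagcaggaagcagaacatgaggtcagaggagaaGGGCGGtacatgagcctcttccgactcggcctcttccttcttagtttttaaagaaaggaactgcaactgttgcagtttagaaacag
Slc25a33, chr4:149774218-149774517, minus strand: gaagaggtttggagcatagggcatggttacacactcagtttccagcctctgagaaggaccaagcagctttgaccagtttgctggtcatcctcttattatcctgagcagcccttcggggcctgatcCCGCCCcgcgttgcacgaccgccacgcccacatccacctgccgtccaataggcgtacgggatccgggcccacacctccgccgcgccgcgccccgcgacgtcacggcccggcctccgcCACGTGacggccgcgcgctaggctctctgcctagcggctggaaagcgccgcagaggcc

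In the window of Slc25a18 the only match was to the TATA box letters, and it lay on the strand opposite to the gene. Its first base in the printed window was 75 bases before the start, so it is not a TATA box in the direction of the gene. Matches to the TATA box on either strand were in 13.6% of all 32851 windows of this length. Of the 46 windows of the 36 members, 2 held one (Slc25a18 and Slc25a21). Slc25a45 held a GC box 36 bases before the start and Slc25a33 a GC box and an E-box 125 and 8 bases before it. GC boxes were in 38 of the 46 member windows (30 of 36 members) and in 35.7% of all windows. E-boxes were in 8 of the member windows (7 members) and in 7.2% of all windows. The amino acid response element was in no member's window and in 4.0% of all windows. A match describes letters in these windows and not binding, and members can have more than 1 window.

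The ADP/ATP and phosphate carriers, the most abundant class (301 ± 48.1 RPKM summed in mtD2- and 310 ± 49.5 in mtD2+), had 0 of 4 members called. Slc25a4, the isoform known from heart and muscle, stood at 194, 194, 168 and 183 CPM in mtD2- and 142, 186, 140 and 155 CPM in mtD2+ (log2 -0.26, SE 0.11, edgeR adjusted p = 0.207). Slc25a5, the isoform known from proliferating cells, stood at 294, 282, 223 and 405 CPM and at 307, 362, 232 and 426 CPM (log2 0.14, SE 0.11, edgeR adjusted p = 0.475). Slc25a4 was lower in mtD2+ in each of the 4 mice under either scaling. Slc25a5 was higher in each of them with TMM factors but not when scaled by library totals, where mouse 3 turned. Slc25a5 is uncertain: 33.8% of the 50-base windows of its transcripts also occur in 9 other genes, among them its pseudogene Slc25a5-ps, whereas Slc25a4 shared none. The phosphate carrier Slc25a3 stood at 196, 201, 233 and 223 CPM and at 274, 221, 255 and 180 CPM (log2 0.11, SE 0.14, edgeR adjusted p = 0.675), with mouse 4 moving against the other 3. The testis isoform Slc25a31 had 25 to 43 counts in mtD2- and 0 to 51 in mtD2+.

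The ATP-magnesium/phosphate carriers, which load the matrix with adenine nucleotides under calcium control, had 0 of 3 tested members called, with members on both sides of 0. Slc25a25 stood at 9.89, 8.89, 7.82 and 18.6 CPM in mtD2- and 13.8, 15.1, 19.4 and 26.2 CPM in mtD2+, higher in each mouse (log2 0.76, SE 0.22, edgeR adjusted p = 0.0795). Naif1, on the opposite strand, overlaps 8.2% of its exon bases and stood at 11.0 to 23.8 CPM. Slc25a24 stood at 50.3, 52.3, 56.5 and 38.8 CPM and at 35.7, 40.1, 44.6 and 29.8 CPM, lower in each mouse by similar amounts, log2 -0.49, -0.38, -0.34 and -0.38 (fitted log2 -0.40, SE 0.12, edgeR adjusted p = 0.0956). The third, Slc25a23, averaged 7.86 ± 2.82 and 5.67 ± 1.69 CPM (SD, n = 4).

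Of the tricarboxylate and dicarboxylate carriers 0 of 3 tested members were called. Slc25a11, which exchanges oxoglutarate for malate, stood at 74.2, 85.2, 95.5 and 106 CPM in mtD2- and 61.0, 70.0, 64.9 and 36.7 CPM in mtD2+. The groups did not overlap (log2 -0.65, SE 0.20, edgeR adjusted p = 0.101), and the within-mouse log2 ratios of -0.28, -0.28, -0.56 and -1.53 were farthest from 0 in mouse 4. Without mouse 4 the log2 fold change was -0.37. Its exons overlap, over 8.9% of their bases, those of Rnf167 on the opposite strand. Rnf167 is abundant, at 143 to 235 CPM in mtD2- and 227 to 280 in mtD2+, and was higher in mtD2+ in each mouse. Reads from the shared stretch cannot be told apart without strand, and their part in the level of Slc25a11 was not tested. The dicarboxylate carrier Slc25a10 stood at 63.8 ± 10.4 and 65.2 ± 9.15 CPM and the citrate carrier Slc25a1 at 15.9 ± 3.22 and 13.8 ± 4.67 CPM, differences within the spread.

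Of the 4 aspartate and glutamate carriers Slc25a18 alone was called. Slc25a12, the aspartate/glutamate carrier aralar of the malate-aspartate shuttle, averaged 29.4 ± 4.68 CPM in mtD2- and 26.6 ± 3.71 in mtD2+, and its relative Slc25a13, citrin, at 4.69 ± 0.684 and 6.27 ± 2.54 CPM (SD, n = 4). The carnitine carrier Slc25a20, which admits acylcarnitines to fatty acid oxidation, stood at 27.9 ± 5.28 and 23.0 ± 5.46 CPM. Of the other amino acid carriers 0 of 4 tested members were called. Slc25a44, a carrier of branched-chain amino acids, stood at 43.1 ± 13.7 and 33.9 ± 5.17 CPM, and Slc25a38, a glycine carrier needed for heme synthesis, at 21.4 ± 8.11 and 26.6 ± 6.12 CPM with mtD2+ higher in all 4 mice. The ornithine carrier Slc25a15 and the basic amino acid carrier Slc25a29 lay at or below 6.20 CPM in every library.

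The pyrimidine nucleotide carriers Slc25a33 and Slc25a36, which supply mitochondrial DNA and RNA synthesis, were both higher in mtD2+ in each of the 4 mice, and 0 of 2 were called. Slc25a33 stood at 3.89, 1.36, 1.85 and 11.7 CPM in mtD2- and 6.52, 6.05, 7.88 and 19.2 CPM in mtD2+ (log2 1.40, SE 0.36, edgeR adjusted p = 0.0592). Both libraries of mouse 4 were the highest of their groups, and the log2 ratio there was 0.71, beside 0.75, 2.15 and 2.09 in mice 1 to 3. The antisense gene Gm13068 overlaps its exons and had 0 to 22 counts in mtD2- and 19 to 34 in mtD2+, and the strand of the counting is not given in the sources used here. Slc25a36 stood at 115 ± 32.5 and 135 ± 23.4 CPM.

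Both mitoferrins had higher mean levels in mtD2+, and 0 of 2 were called. Slc25a37, mitoferrin-1, stood at 141, 165, 128 and 109 CPM in mtD2- and 166, 175, 173 and 135 CPM in mtD2+, higher in each mouse except, when scaled by library totals, in mouse 2 (log2 0.26, SE 0.11, edgeR adjusted p = 0.187). Slc25a28, mitoferrin-2, stood at 26.0 ± 5.67 and 33.1 ± 3.36 CPM and was higher in 3 of 4 mice. Of the glutathione carriers 0 of 2 were called. Slc25a39 stood at 30.1, 33.7, 34.1 and 40.3 CPM in mtD2- and 22.5, 28.9, 27.2 and 22.6 CPM in mtD2+, with no overlap of the groups (log2 -0.45, SE 0.16, edgeR adjusted p = 0.134). Slc25a40 stood at 4.62 ± 2.91 and 3.67 ± 2.45 CPM.

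Cofactor carriers had 0 of 7 members called, with log2 fold changes between -0.61 and 0.35 and a median of 0.04. Slc25a17, the peroxisomal member, stood at 87.6, 68.4, 89.3 and 84.9 CPM in mtD2- and 88.0, 85.4, 71.4 and 93.9 CPM in mtD2+ (log2 0.04, SE 0.13, edgeR adjusted p = 0.897). The NAD carrier Slc25a51 stood at 48.8 ± 4.76 and 51.0 ± 12.4 CPM and the S-adenosylmethionine carrier Slc25a26 at 6.95 ± 1.54 and 8.81 ± 1.96 CPM (SD, n = 4). Slc25a16 and Slc25a42, which are linked to coenzyme A, and the folate carrier Slc25a32 had means of at most 7.14 CPM. The uncoupling protein-like members Slc25a14, Slc25a27 and Slc25a30 had 0 of 3 called and means of at most 5.82 CPM. Of the members without a settled substrate other than Slc25a45, Slc25a34 stood at 2.50, 2.27, 0.421 and 5.11 CPM in mtD2- and 4.56, 3.56, 3.90 and 7.98 CPM in mtD2+, higher in each mouse (log2 1.24, SE 0.52, edgeR adjusted p = 0.199). Slc25a35, Slc25a43, Slc25a47 and Slc25a53 were not called, and 31.3% of the exon bases of Slc25a35 are shared with Rangrf on the opposite strand. Slc25a14 and Slc25a43 show how single libraries weigh on thin members: the mtD2- library of mouse 4 had 1 and 0 counts, the other libraries 47 to 114 and 25 to 95.

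Ratios of related carriers within a library do not depend on how libraries are scaled, and 8 pairs, chosen after the data were seen, are given as a description with no test. The ratio of Slc25a4 to Slc25a5 per length was 0.464, 0.481, 0.528 and 0.317 in mtD2- and 0.322, 0.359, 0.422 and 0.255 in mtD2+. It was lower in mtD2+ in each mouse, with log2 changes of -0.53, -0.42, -0.32 and -0.31 (mean -0.40 ± 0.10, SD). Whether reads that Slc25a5 shares with pseudogenes enter it is not known, as the sources used here do not give the counting options. Slc25a25 relative to Slc25a24 was 0.146, 0.126, 0.103 and 0.355 in mtD2- and 0.285, 0.28, 0.321 and 0.651 in mtD2+, higher in each mouse by log2 0.97, 1.15, 1.65 and 0.87. Slc25a18 relative to Slc25a22 was higher in each mouse, by a mean log2 of 1.74 ± 0.53 (SD). Slc25a11 relative to Slc25a10 was 2.07 to 2.90 in mtD2- and 0.861 to 1.80 in mtD2+, with no overlap. Slc25a33 relative to Slc25a36 was higher in each mouse, although in mouse 4 it went only from 0.851 to 0.944. Slc25a12 relative to Slc25a13 was lower in each mouse, by log2 -1.04 and -0.80 in mice 1 and 2 and by -0.09 and -0.02 in mice 3 and 4. The mitoferrins, at 1.32 ± 0.0645 and 1.24 ± 0.176, and the glutathione carriers, at 16.8 ± 21.6 and 8.74 ± 3.82, did not keep to 1 direction.

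**Figure D4:**
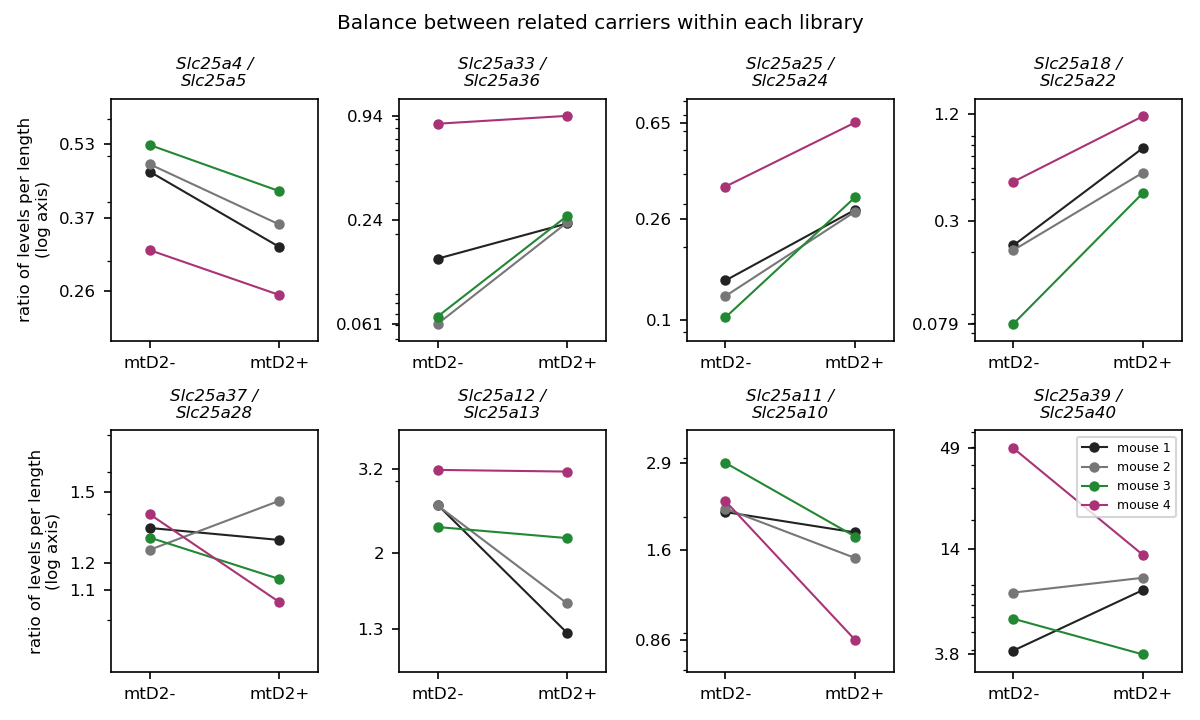
Ratio of the levels per length of 8 pairs of related carriers (log axes) in the mtD2- and mtD2+ library of each mouse, joined by a line per mouse. Slc25a4 over Slc25a5 is lower and Slc25a25 over Slc25a24 higher in mtD2+ in all 4 mice, and mouse 4 starts apart from the others in both and for Slc25a33 over Slc25a36.

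Of the carriers that bear other symbols, Ucp1, Ucp2, Ucp3, Mtch1 and Mtch2, 4 were tested and 0 called by edgeR, DESeq2 or limma voom, with 1 (Mtch2) past an unadjusted p of 0.05. Ucp2, an uncoupling protein typical of macrophages, was at 246 ± 15.1 RPKM in mtD2- and 209 ± 25.6 in mtD2+, above Slc25a5 in mean level in both (log2 -0.24, SE 0.11, edgeR adjusted p = 0.237). Mtch2, an outer membrane protein as Slc25a46 is, stood at 74.5 ± 13.8 and 91.8 ± 8.92 CPM (log2 0.32, SE 0.12, edgeR adjusted p = 0.152). Of 29 other mitochondrial transport genes, such as the pyruvate carrier, the porins, the sideroflexins and the calcium uniporter, 0 were called by edgeR and the median log2 fold change was -0.07. An unadjusted p under 0.05 was reached by 1 higher and 4 lower of the 29, against 22.8% of all tested genes. DESeq2 called 1 higher and 1 lower, beside 1135 and 681 of all 13933 tested genes. Limma voom called 1 lower, beside 694 higher and 372 lower of all tested genes. The serine transporter gene Sfxn3 (-0.50, SE 0.14, edgeR adjusted p = 0.0711) and the porin gene Vdac1 (-0.37, SE 0.11, edgeR adjusted p = 0.0956) had the smallest p.

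Among 30 genes of enzymes and helpers that make or use what the carriers transport, 2 rose and 0 fell by edgeR, beside 5.5% called of all tested genes, with a median log2 fold change of -0.03. An unadjusted p under 0.05 was reached by 7 higher and 4 lower of the 30, against 22.8% of all tested genes. Mat2a, which makes the S-adenosylmethionine that Slc25a26 carries, stood at 324, 271, 283 and 340 CPM in mtD2- and 456, 466, 462 and 583 CPM in mtD2+ (log2 0.69, SE 0.10, edgeR adjusted p = 0.00895). Its groups did not overlap. The call of Mat2a was lost without mouse 3 (log2 0.69, adjusted p = 0.063) and held in the other 13 alternatives, with adjusted p from 1.24e-08 to 0.0454. The other 28 did not pass. With DESeq2 5 of the 30 rose and 2 fell, beside 1135 and 681 of all 13933 tested genes. With limma voom 5 rose and 1 fell, beside 694 and 372 of all tested genes.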

How the data were processed

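The authors' tools included STAR 2.0.4b and featureCounts 1.45 (from Subread) with build GRCm38, per the submitters' processing notes. The sources used here do not give options, strand or the annotation counted. The deposited counts are whole reads per gene. Deposited CPM values are counts over the sum of the library, and deposited RPKM values are those divided by gene length in kilobases (checked in all 8 libraries). Neither entered a test. GENCODE M21 gave symbols for 40340 of 41388 genes, and coordinates are the spans in the deposited tables.

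Counts were tested with the quasi-likelihood F test of edgeR 4.0.16 in R 4.3.3, with TMM factors and mouse as a block, on 13933 genes passing edgeR's filter (minimum count 10, minimum total 15, proportion 0.7). P-values were adjusted by Benjamini-Hochberg over all of these. The SE is the fold change over the square root of F. DESeq2 1.42.0 and limma 3.58.1 served as alternatives. Pairing rests on the labels, which name each library's mouse. The correlation of deviations between the libraries of a mouse was 0.039, 0.070, 0.145 and 0.251 in mice 1 to 4, and the highest with another mouse 0.058, 0.025, 0.014 and -0.01, so that mouse 1 did not correlate best with itself. On simulated counts for this comparison over 13545 genes, a change of 2-fold was called in 40.8% of 49 genes, one of 1.5-fold in 18.4% of 49, and 3 of 13353 unchanged genes were called. The simulated counts had no differences between mice and fewer changed genes than were called in the data. These shares therefore need not hold for the data.

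Members with an unadjusted p under 0.05 and the 6 of highest level per length are given with all values. From the 3 lists of related genes the called genes, or else the 2 of smallest p, are named. Members and lists were chosen with earlier results of these data known. Substrate classes follow textbook roles. No library repeated another (chi-square per degree of freedom 35.2 to 155.4 within groups). Some genes counted among the members and lists are not reported here by name or shown in figures.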

Additional observations from a re-analysis of the deposited data

Results flagged for a closer look

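In mouse 4 several carrier values stood far from the other 3 mice of their group, by the gap to the nearest value relative to the whole range. Of 46 groups of 4 libraries looked at, 6 held such a library. Chance flags about 1 in 20 independent groups, but these share libraries and genes, and no excess over chance was tested. Slc25a33 was at 19.2 CPM in the mtD2+ library of mouse 4, against 6.52, 6.05 and 7.88 CPM. Its ratio to Slc25a36 was 0.851 in the mtD2- library of mouse 4, against 0.144, 0.061 and 0.0672, and 0.944 in the mtD2+ library, against 0.229, 0.232 and 0.253. The ratio of Slc25a25 to Slc25a24 was 0.355 in the mtD2- library of that mouse, against 0.146, 0.126 and 0.103, and 0.651 in its mtD2+ library, against 0.285, 0.28 and 0.321. The ratio of Slc25a39 to Slc25a40 was 49.1 in its mtD2- library, against 3.96, 8.15 and 5.88, where Slc25a40 had 18 counts. All 6 came from mouse 4.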

How the results depend on the processing

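Under 14 alternatives, 176 of 196 fold changes of the 14 members given with all values kept their direction and side of the threshold. Most of these members were uncalled in the main fit, and staying uncalled counts as kept. Slc25a46 was called in all 14 alternatives, and Slc25a18 and Slc25a45 in 9 each. Without the replicate block 147 genes rose and 71 fell, and 1 member rose (Slc25a46) and 0 fell. DESeq2 called 1135 genes higher and 681 lower, and 4 members higher and 2 lower, adding Slc25a33, Slc25a25 and Slc25a11. Without the low-count filter 2 members fell, Slc25a45 and Slc25a11, and Slc25a33 rose there, with the stricter filter and among protein-coding genes alone. Leaving out each mouse left 120 to 432 genes higher and 46 to 123 lower, 1 member higher and 0 lower, and a member median from -0.02 to 0.12. With library totals alone the member median was -0.01 and Slc25a17 turned to -0.02. Slc25a17 spanned -0.06 to 0.16 and Slc25a3 -0.01 to 0.25 over the fits without 1 mouse. Of the other transport genes, 1 fell with library totals, without the filter and with limma voom, and 1 rose and 1 fell with DESeq2. Of the enzymes beside the carriers, 5 rose without the filter, with the stricter filter, with DESeq2, with limma voom and among protein-coding genes, and 1 fell in each of these and with library totals, except that 2 fell with DESeq2. Leaving out each mouse left 0 to 2 higher. The summed level changed by a mean log2 of -0.02 to 0.03 without 1 mouse. The ratio of Slc25a4 to Slc25a5 changed by -0.42 to -0.35 and that of Slc25a25 to Slc25a24 by 1.00 to 1.26 without 1 mouse. The causes of these shifts were not tested. Members with few counts limit the precision: 12 of 42 tested members averaged under 100 counts.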
